A study of Mus musculus with 5 samples.

Results

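In embryonic mouse cortical cells made to express Ptf1a, transcripts of the cystine and glutamate exchanger gene Slc7a11 were listed at 0.189 FPKM (read fragments normalised for transcript length and library depth), against 30.0 FPKM in control cells. The partner subunit Slc3a2 and 4 genes that make and recycle glutathione differed by at most 1.36-fold between the groups and were not called. Described here are 10 genes of cystine import, glutathione synthesis and Nrf2-driven defence, matched by symbol among the 23234 gene rows of the deposited table; all 10 were found and all 10 carried a test. They were chosen by their function with the FPKM values and folds of this same comparison known, so their values are a description and the authors' test results beside them are given for size and precision only.

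The study compared CD1 mouse cortices electroporated at E12.5 and harvested at E15.5 (embryonic days). The control group of 2 samples received a construct carrying GFP alone, and the misexpression group of 3 samples received a construct carrying Ptf1a with GFP. GFP-positive cells, labelled as pyramidal cells, were purified by sorting from 3 to 6 pooled brains a sample, and both groups therefore passed through electroporation, GFP expression and sorting. The labels do not name the promoter that drives the constructs. Ptf1a is a basic helix-loop-helix transcription factor that specifies inhibitory neurons elsewhere in the nervous system. Each gene has 1 merged value a group in the authors' table, so no spread between samples and no depth per sample can be given, and how the level of a gene was shared among the samples was not tested.

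Slc7a11 is the transport subunit of the exchanger known as system xc-, which takes up cystine in return for glutamate, and Slc3a2 is the heavy chain that brings it to the cell surface. Cystine is reduced to cysteine, the limiting amino acid for glutathione, which the cell uses to detoxify peroxides and electrophiles. Nrf2, the product of Nfe2l2, is held down by Keap1 and, when released, binds antioxidant response elements near genes such as Slc7a11, Gclc, Gclm, Hmox1 and Nqo1. Slc7a11 is also a target of Atf4, a factor of the amino acid response, through amino acid response elements.

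The regions just before the transcription starts are shown for Slc7a11, for its partner Slc3a2, for Nfe2l2, which went the other way, and for Gclm, which also held a motif match. Each is the 250 bases before the RefSeq start on GRCm38.p6, printed 5′ to 3′ on the gene's own strand. They lie at chr3:50443614-50443863 (minus strand) for Slc7a11, chr19:8713898-8714147 (minus) for Slc3a2, chr2:75704664-75704913 (minus) for Nfe2l2 and chr3:122245307-122245556 (plus) for Gclm. Capitals mark matches to the amino acid response element core TGATGNAA in Slc7a11 and to the antioxidant response element core TGACNNNGC in Nfe2l2 and Gclm, on either strand.
Slc7a11: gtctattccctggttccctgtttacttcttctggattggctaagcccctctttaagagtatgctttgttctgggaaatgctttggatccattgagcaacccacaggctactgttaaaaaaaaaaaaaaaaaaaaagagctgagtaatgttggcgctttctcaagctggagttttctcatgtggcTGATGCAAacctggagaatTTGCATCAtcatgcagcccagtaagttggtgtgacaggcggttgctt
Slc3a2: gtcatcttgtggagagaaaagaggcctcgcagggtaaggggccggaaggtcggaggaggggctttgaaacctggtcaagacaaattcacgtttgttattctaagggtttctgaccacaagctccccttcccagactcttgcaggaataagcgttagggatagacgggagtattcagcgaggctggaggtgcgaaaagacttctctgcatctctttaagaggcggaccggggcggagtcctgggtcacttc
Nfe2l2: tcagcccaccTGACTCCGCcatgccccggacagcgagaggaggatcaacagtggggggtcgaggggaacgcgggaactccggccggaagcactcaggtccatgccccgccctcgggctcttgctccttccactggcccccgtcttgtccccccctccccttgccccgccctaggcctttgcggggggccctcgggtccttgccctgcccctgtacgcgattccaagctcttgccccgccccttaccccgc
Gclm: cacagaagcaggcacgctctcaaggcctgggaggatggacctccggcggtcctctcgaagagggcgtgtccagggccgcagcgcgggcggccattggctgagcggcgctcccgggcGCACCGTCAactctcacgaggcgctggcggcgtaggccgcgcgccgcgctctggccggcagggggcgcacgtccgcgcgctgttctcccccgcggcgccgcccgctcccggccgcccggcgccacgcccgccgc
RefSeq windows were found for 7 of the 10 genes and not for Gclc, Gsr and Hmox1. The Slc7a11 region held TGATGNAA on each strand, with first bases 66 and 47 bases before the start, and no other gene of the 7 held it. This motif occurred in 3.45% of all 32851 windows. A pair of matches on opposite strands with first bases at most 30 bases apart, an arrangement chosen after the Slc7a11 sequence was seen, occurred in 1 window, that of Slc7a11. With 50 bases after the start included, the pair occurred in 2 windows. TGACNNNGC occurred in 10.2% of windows, and among the 7 genes in Nfe2l2, 240 bases before the start, and in Gclm, 134 bases before it. The E-box CAGCTG, a form that basic helix-loop-helix factors can bind, occurred in 13.0% of windows and among the 7 genes in 1 of the 4 windows of Gpx4. None of these matches overlapped another, and a match describes the letters and not binding.

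Of the 10 genes, 2 were called lower and 1 higher at a deposited q under 0.05. Among all 11876 tested genes 37.7% were called, 19.1% lower and 18.7% higher. The median log2 difference of the 10 genes, computed as log2(FPKM + 0.1) with Ptf1a minus the control's, was -0.20, against -0.01 over all tested genes. The changed genes were Slc7a11 and Gpx4, which fell, and Nfe2l2, which rose. The other 7 were not called, and 6 of them had the lower value with Ptf1a.

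**Figure D1:**
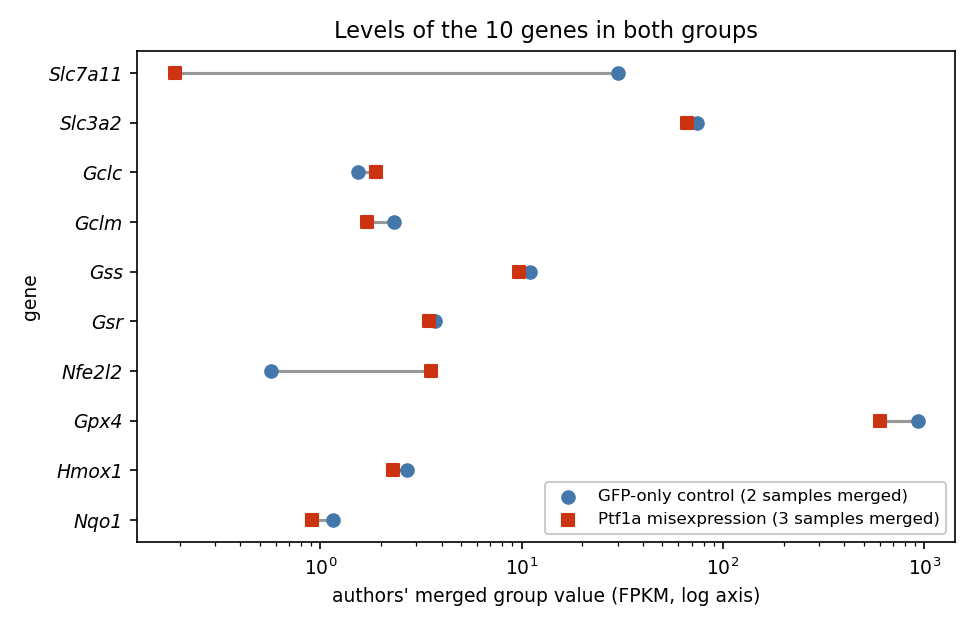
Authors' merged FPKM values (log axis) of the 10 genes in GFP-only control cells (circles) and Ptf1a-misexpressing cells (squares), joined by a line. Slc7a11 spans from 30.0 down to 0.189 FPKM and Nfe2l2 from 0.569 up to 3.54 FPKM, while the symbols of most other genes lie close together.

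The exchanger subunits parted. Slc7a11 (chromosome 3, 50168858 to 50247535, mm9) went from 30.0 FPKM in the control to 0.189 FPKM with Ptf1a, a 159-fold lower value. The authors' deposited table gives a log2 fold of -7.31 with q = 0.000329, and its test statistic of -13.13 implies a standard error of 0.56. Slc7a11 was thus above 78.7% of tested genes by level in the control and above 0.303% with Ptf1a. Slc3a2 (chromosome 19, 8781372 to 8797859, mm9) stood at 74.1 and 66.3 FPKM, without a call. In the authors' deposited table its log2 fold was -0.16 with q = 0.234, and the implied standard error of 0.23 gives an interval (95%, from a normal approximation) from -0.62 to 0.30. Per length, Slc3a2 transcripts were 2.47 times as abundant as those of Slc7a11 in the control and 351 times with Ptf1a.

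A drop of this depth from this level was rare in the table. Of 4379 tested genes with at least 10 FPKM in the control, 14 stood at least 4-fold lower with Ptf1a, and 3 of these were called: Slc7a11, the thyroid hormone carrier Ttr (31.4 to 6.92 FPKM) and the microRNA Mir680-1 (30.4 FPKM, listed at 0 with Ptf1a). Apart from Slc7a11, Ttr and AF357425, every row among the 14 has a microRNA, small nucleolar RNA or small nuclear RNA name. Besides Slc7a11, 6 rows with at least 10 FPKM in the control were below 1 FPKM with Ptf1a, and all 6 were listed at 0 (a 0 here may also come from an estimate that failed). By distance between the pairs of log2(FPKM + 0.1) group values, over these 2 values a gene, the rows nearest to Slc7a11 were Mir680-1, Mir3101, Mir3065, S100a8 and 1700097N02Rik. Their distances were 1.53, 2.01, 2.12, 2.56 and 2.70. The first 3 of these rows were listed at 0 with Ptf1a, so their distances depend on the pseudocount: in FPKM Mir680-1 lay close to Slc7a11 in both groups. S100a8, a calcium-binding protein of myeloid cells, was listed at 5.80 and 0.0434 FPKM, without a call.

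**Figure D2:**
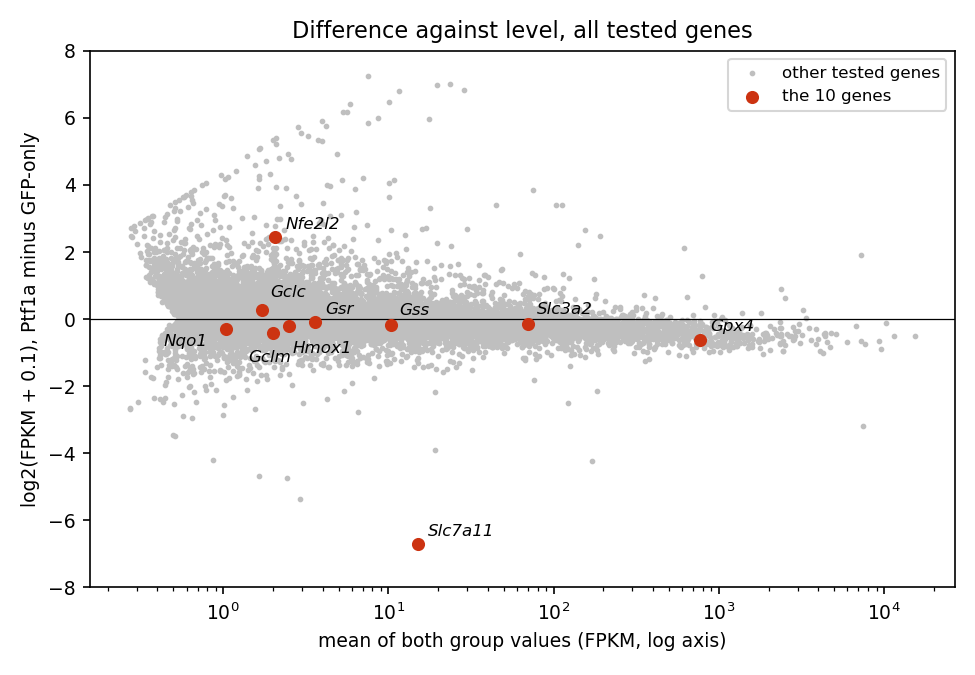
Log2(FPKM + 0.1) of Ptf1a cells minus that of GFP-only cells (y axis) against the mean of both group values (x axis, FPKM, log axis) for every tested gene (grey) and the 10 genes (red); 17 genes beyond 8 on the y axis are not drawn. Slc7a11 lies apart at -6.70, Nfe2l2 sits at 2.44 near the upper edge of genes of its level, and the other 8 lie within the main band.

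No listed gene around Slc7a11 on chromosome 3 was lower by more than 1.70-fold. Within 1 Mb on the mm9 coordinates of the table, 6 other genes were listed. The nearest on one side, the protocadherin gene Pcdh18, lay 608 kb away at 0.757 and 0.799 FPKM. The nearest on the other, the nocturnin gene Ccrn4l, lay 781 kb away at 1.95 and 1.75 FPKM. Neither was called, nor was Naa15 (4.60 and 3.92 FPKM). The transcription factor gene Elf2 rose from 3.21 to 4.47 FPKM, and Ndufc1, a subunit of respiratory complex I, fell from 1183 to 697 FPKM.

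None of the 4 genes that make and recycle glutathione was called. Gclc, the catalytic subunit of the rate-limiting ligase, stood at 1.54 FPKM in the control and 1.88 FPKM with Ptf1a, with a log2 fold of 0.29 and q = 0.296 in the authors' deposited table. Gclm, its modifier subunit, stood at 2.32 and 1.71 FPKM (log2 fold -0.44, q = 0.211 in the authors' deposited table). Gss, which adds glycine in the final step of synthesis, stood at 11.0 and 9.69 FPKM. Gsr, which regenerates reduced glutathione, stood at 3.71 and 3.47 FPKM. The intervals of the log2 fold ran from -0.62 to 1.20 for Gclc, from -1.52 to 0.63 for Gclm, from -0.80 to 0.43 for Gss and from -0.84 to 0.65 for Gsr. A 2-fold rise therefore lay within the interval of Gclc and a 2-fold fall within that of Gclm. A change of the size seen for Slc7a11 lay outside all 4.

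Nfe2l2, which encodes Nrf2 (chromosome 2, 75513576 to 75542698, mm9), rose from 0.569 to 3.54 FPKM, a 6.22-fold higher value. Its log2 fold in the authors' deposited table was 2.64 with q = 0.000329, an implied standard error of 0.62 and an interval from 1.43 to 3.84. Among tested genes 98.7% had a lower log2 difference. Of the Nrf2 targets among the 10 genes, Slc7a11 fell and Gclc, Gclm, Hmox1 and Nqo1 were not called. Hmox1, which breaks down heme, stood at 2.68 and 2.29 FPKM (q = 0.498 in the authors' deposited table), and the quinone reductase gene Nqo1 at 1.16 and 0.914 FPKM (q = 0.470 in the authors' deposited table). These are weakly expressed genes with wide intervals, from -1.21 to 0.75 for Hmox1 and from -1.76 to 1.08 for Nqo1.

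Gpx4, the selenoprotein that uses glutathione to reduce lipid peroxides in membranes (chromosome 10, 79516255 to 79519184, mm9), was the most abundant of the 10 genes and fell from 925 to 603 FPKM. The deposited log2 fold was -0.62 with q = 0.000329 in the authors' deposited table, and the implied standard error was 0.22. Abundant genes as a class were lower with Ptf1a: in the 10% of tested genes with the highest mean FPKM, where Gpx4 lies, 58.2% were called lower and 3.79% higher, and the median log2 difference was -0.32. Relative to that median the difference of Gpx4 was -0.30. Reading the deposited statistic as a two-sided normal deviate calls fewer genes, 2.81% lower and 3.31% higher. On that reading the call for Gpx4 was lost (q = 0.0671), while those for Slc7a11 (q = 2.8e-36) and Nfe2l2 (q = 0.000968) held. The statistic and the deposited q did not always go together. The microRNA rows Mir181b-1 and Mir5128 had statistics of -141.42 and -95.9 without a call (q = 0.51 and 0.461 in the authors' deposited table). The normal reading and the implied standard errors thus rest on a statistic that need not follow a normal distribution.

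**Figure D3:**
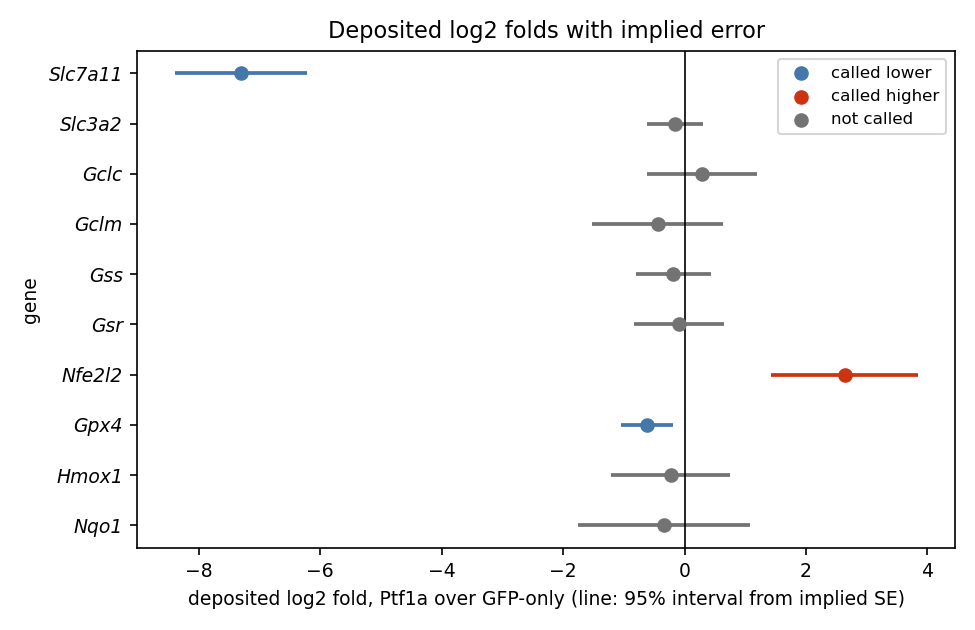
Deposited log2 fold of Ptf1a over GFP-only (points) for the 10 genes, with lines for the 95% interval from the implied standard error, coloured by the call at a deposited q under 0.05. The intervals of Slc7a11, Gpx4 and Nfe2l2 exclude 0, and those of the other 7 genes include it.

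Further genes of cystine supply, glutathione use and the Nrf2 and Atf4 pathways were examined as 11 lists of 181 genes, of which 144 were tested. Of these 34 fell (23.6%) and 29 rose (20.1%), against 19.1% and 18.7% of all tested genes, and their median log2 difference was -0.05. With the statistic read as a normal deviate, 7 of the 144 were called lower and 10 higher, against 2.81% and 3.31% of all genes with a statistic. The 7 lower were 4 glutathione-using enzymes and 3 genes of the thioredoxin and superoxide dismutase systems. The 10 higher were 4 glutathione-using enzymes, Cbs and Cth, Mt1 and Mt2, Slc1a3 and Nupr1. Every other call of these lists below rests on the deposited q alone. The shares of all tested genes, 19.1% lower and 18.7% higher, are the background for each list count below.

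Other carriers of cysteine, glutamate and neutral amino acids gave no change near that of Slc7a11. Of 8 tested genes among Slc7a11's relatives and Slc3a1, 1 rose and 1 fell. These were the cationic amino acid carriers Slc7a3 (0.236 to 0.733 FPKM) and Slc7a1 (0.688 to 0.443 FPKM), picked once their values had been seen. The most abundant relative, Slc7a4, stood at 10.2 and 9.17 FPKM, and Slc7a6, which also pairs with Slc3a2, at 3.24 and 4.18 FPKM; neither was called. Among glutamate and neutral amino acid carriers 3 of 7 rose and 1 fell, against 18.7% and 19.1% of all tested genes. Slc1a3, the glial glutamate transporter, rose from 7.47 to 19.7 FPKM, and Slc38a1, a glutamine carrier, from 10.8 to 16.0 FPKM. Slc1a1, which carries glutamate and also cysteine, fell from 2.50 to 1.70 FPKM.

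Transsulfuration, the route that makes cysteine from methionine inside the cell, held some of the larger rises. Cbs, which joins homocysteine to serine, rose from 1.87 to 8.89 FPKM (log2 fold 2.25, q = 0.000329 in the authors' deposited table). Cth, which releases cysteine in the next step, rose from 0.814 to 3.08 FPKM (log2 fold 1.92, q = 0.000329 in the authors' deposited table). Cdo1, which oxidises cysteine and so removes it, fell from 45.9 to 29.7 FPKM. The other 7 of the 10 tested genes, such as the methionine adenosyltransferase genes Mat2a (66.2 and 62.8 FPKM) and Mat2b (52.1 and 51.7 FPKM), were not called. The list's median log2 difference was 0.12. Both Cbs (q = 4.22e-05) and Cth (q = 0.0371) were also called on the normal reading, and Cdo1 was not (q = 0.129).

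Genes of glutathione breakdown and export went lower in 4 of 8 tested and higher in 0, against 19.1% and 18.7% of all tested genes. Their median log2 difference was -0.41. The glutathione-degrading enzymes Chac1 (12.1 to 8.03 FPKM) and Chac2 (26.7 to 17.2 FPKM) fell. So did Ggct, which acts on gamma-glutamyl amino acids (15.7 to 10.8 FPKM), and the export pump gene Abcc5 (34.2 to 21.1 FPKM). Ggt7 stood at 25.0 and 20.6 FPKM, without a call. With the statistic read as a normal deviate, 0 of the 4 were called lower.

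Glutathione-using enzymes went both ways, 8 higher and 7 lower of 22 tested, against 18.7% and 19.1% of all tested genes. Their median log2 difference was 0.00. Mgst1, a membrane-bound glutathione transferase and peroxidase, rose from 17.7 to 188 FPKM, with a test statistic of 13.02 and q = 0.000329 in the authors' deposited table. The secreted peroxidase gene Gpx3 rose from 2.20 to 7.68 FPKM and Gsta4, which conjugates lipid peroxidation products, rose by a log2 difference of 1.31. Gstm4 fell from 17.8 to 8.26 FPKM, and the abundant Gstm5 (278 and 239 FPKM) and Gstm7 (121 and 113 FPKM) were not called. Genes of the Gstm and Gstp clusters are close copies of each other, and how the authors' counting divided reads among them is not given in the sources used here.

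In the parallel thioredoxin and superoxide dismutase systems 7 of 21 tested genes fell and 1 rose, with a median log2 difference of -0.18. Glrx, which removes glutathione from proteins, fell from 53.9 to 30.5 FPKM, Prdx5 from 521 to 328 FPKM, Glrx3 from 328 to 209.9 FPKM and Sod1 from 367 to 249 FPKM. Prdx1 rose, by a log2 difference of 0.33, and Prdx2, the most abundant, stood at 3027 and 2583 FPKM without a call. Most of these are abundant transcripts, and in the 10% of tested genes with the highest mean FPKM 58.2% were called lower. After subtracting from each gene the median of tested genes in its own of 10 bins of expression, the list's median was 0.00.

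Upstream, regulators of Nrf2 were mostly uncalled, with 1 risen and 1 fallen of 14. Keap1, which holds Nrf2 down, and Bach1 were not called, with log2 differences of -0.18 and -0.30. Gsk3b, a kinase that promotes Nrf2 breakdown, rose from 12.7 to 18.0 FPKM and the related factor gene Nfe2l3 fell from 1.85 to 0.834 FPKM. Among other Nrf2 targets 4 of 19 rose and 6 fell, with a median log2 difference of -0.20, or 0.00 after subtracting the median of each gene's expression bin. On the normal reading 2 were called higher and 0 lower. The metallothionein genes Mt1 (43.7 to 109 FPKM) and Mt2 (25.6 to 70.7 FPKM) rose most, and Ftl1, a ferritin subunit, stood at 13586 and 9538 FPKM, a log2 difference of -0.19 from the median of its bin (q = 0.176 on the normal reading). Metallothioneins answer to metals and glucocorticoids as well as to Nrf2. The other ferritin subunit, Fth1, stood at 2186 and 1907 FPKM without a call.

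Of the Atf4 and amino acid response genes 6 of 12 rose and 2 fell, against 18.7% and 19.1% of all tested genes. Their median log2 difference was 0.53, or 0.40 after subtracting the median of each gene's expression bin. The risen genes included Trib3 and Sesn2, both under 1 FPKM in both groups, and became 3 with a minimum of 5 FPKM in either group. On the normal reading 1 was called higher, Nupr1, and 0 lower. Atf4 itself was called lower at the deposited q (log2 fold -0.45 in the authors' deposited table), as was the asparagine synthetase gene Asns (91.4 to 63.1 FPKM). Atf4 lies in the same bin of abundant genes as Gpx4, its difference from the median of that bin was -0.13, and on the normal reading it was not called (q = 0.226). The stress protein gene Nupr1 rose from 1.05 to 19.0 FPKM, Cebpg from 1.77 to 3.19 FPKM and the serine synthesis gene Psat1 from 31.7 to 51.8 FPKM. Ddit3 stood at 30.4 and 26.6 FPKM, without a call. Among ferroptosis genes, whose lipid peroxidation death is held off by Gpx4, 3 of 12 were called lower, against 19.1% of all tested genes, and 0 higher. The 3 were the transferrin receptor gene Tfrc (2.63 to 1.84 FPKM), Vdac3, which differed from the median of its bin by -0.06, and the ferritin receptor gene Ncoa4. None of the 3 was called on the normal reading. A list of selenium and selenoprotein genes, kept since Gpx4 holds selenocysteine, had 3 of 11 called higher and 1 lower at the deposited q, and 0 on the normal reading. It also holds genes outside selenocysteine synthesis, such as Selenbp1, a selenium-binding protein among the 3 called higher. Sepsecs, which completes selenocysteine on its transfer RNA, rose from 0.694 to 1.73 FPKM. Trnau1ap, a protein associated with that transfer RNA, fell from 71.7 to 53.9 FPKM.

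**Figure D4:**
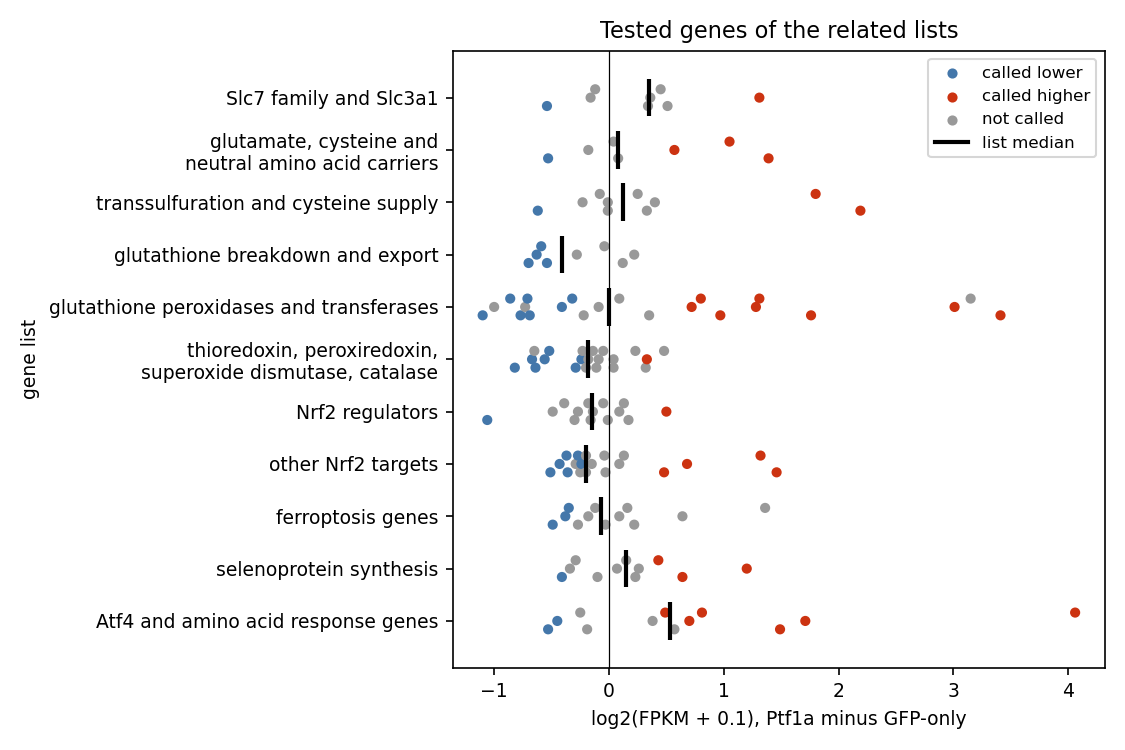
Log2(FPKM + 0.1) of Ptf1a cells minus that of control cells for each tested gene of 11 related lists (points, coloured by the call at a deposited q under 0.05), with the list median as a black bar. Medians run from -0.41 for glutathione breakdown and export to 0.53 for Atf4 and amino acid response genes, and the farthest points to the right are Nupr1 at 4.06 and Mgst1 at 3.41.

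Markers of cell types moved between the groups. The labelled pyramidal identity was visible in both: Neurod6 stood at 1717 and 1189.7 FPKM. All 9 markers of radial glia, the cortical stem cells, rose, with a median log2 difference of 1.46 and a summed level of 1802 FPKM in the control and 3457 FPKM with Ptf1a, and all 9 were called on the normal reading too. All 7 tested pyramidal neuron markers were called lower at the deposited q, with a median of -0.35, or -0.26 after subtracting bin medians, and 1 of the 7 was called on the normal reading. In bulk samples more cells of a type and more RNA per cell cannot be told apart, and the part of this shift in the values of Slc7a11, Nfe2l2, Slc1a3, Cbs and the other genes was not tested. Tubb3 was listed at 0 in the control in a row without a test. Choroid plexus markers summed to 32.7 and 8.33 FPKM, and 8 of the 9 were under 1 FPKM in both groups. The exception was Ttr (31.4 and 6.92 FPKM), so the lower sum came from Ttr. Meningeal fibroblast markers summed to 5.46 and 8.16 FPKM, with 9 of 11 under 1 FPKM in both groups and Foxc1 and Foxc2 at 0 in the control. The more abundant markers went opposite ways: Crabp2 rose from 0.979 to 5.18 FPKM and Dcn fell from 3.11 to 1.79 FPKM. The higher sum therefore came from Crabp2. Vascular markers summed to 5.19 and 7.98 FPKM, with 2 of 4 tested called higher and 1 lower. Microglial markers summed to 16.7 and 12.7 FPKM, with 1 of 6 tested called lower and 0 higher. The called gene was Tyrobp (4.90 to 1.85 FPKM), and none was called on the normal reading. Of the uncalled tested genes, C1qa, Fcer1g and Trem2 had higher values with Ptf1a, and Aif1 and C1qb lower ones. Red blood cell markers summed to 150.2 and 62.7 FPKM, and 3 of the 6 tested fell. The choroid plexus, microglial and red blood cell sums, like Slc7a11, were lower with Ptf1a, and the meningeal and vascular sums were higher. The part of these cell types in the Slc7a11 value was not tested.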

How the data were processed

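RNA from sorted cells was amplified from a low input and sequenced in 5 samples, and the authors deposited 1 table for the series. The submitters' processing notes list Cuffdiff, Cufflinks 2.1.1, TopHat2 2.0.8 and CASAVA 1.8.2, with the build mm9; the Cuffdiff version, annotation and parameters are not given in the sources used here. Per the file headers, the authors gave each gene 1 merged FPKM value a group, a log2 fold, a signed test statistic (a score), a p-value and a q-value. The heading PIG was read as the Ptf1a construct, since the other heading is GFP.

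The 10 genes and all lists were chosen with earlier results of these data known. A gene was called where its deposited q was under 0.05; the authors' own significance mark was identical for 23234 of 23234 rows. The smallest deposited p, 5e-05, was shared by 1803 of 11876 tested genes, so q does not rank the strongest changes. Log2 differences used a pseudocount of 0.1 FPKM, which understates weak genes. The implied standard error is the deposited log2 fold over its statistic. Normal p-values were adjusted by Benjamini-Hochberg. Starts were read as counting from 0, since 7148 of 20598 loci then matched a RefSeq span, against 451 otherwise, and are printed counting from 1. Named beyond the 10 genes were up to 4 called genes of each list with the largest difference at 1 FPKM or more, up to 2 uncalled genes of highest level, up to 2 markers a list, the neighbours within 1 Mb and the 5 genes most like Slc7a11; some are given only in counts. Any other named gene was chosen after its values were seen. Scripts ran in Python 3.11.15 with pandas 2.3.3 and scipy 1.17.1, and were tested on simulated data.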

Additional observations from a re-analysis of the deposited data

How the results depend on the processing

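No paired analysis was possible because the table holds 1 merged value a group, and for the same reason no sample could be left out in turn. The 2 genes called lower became 1, Slc7a11 alone, when an absolute log2 fold of at least 1 was required and when calls came from the normal p of the deposited statistic. The 1 gene called higher, Nfe2l2, became 0 with a minimum of 5 FPKM in either group, which removes it by construction. Over the 11 lists the 34 genes called lower became 22 at a q under 0.01, 2 with the fold minimum and 7 with the normal p. The 29 called higher became 16 with the fold minimum, 18 with the minimum of 5 FPKM and 10 with the normal p. Of 95 recomputed log2 differences and list medians, 92 moved by less than the implied standard error, and none of the 3 called among the 10 genes changed sign. The exceptions were Slc7a11 (-4.70) and Nfe2l2 (1.53) with a pseudocount of 1 FPKM and Gpx4 (-0.30) centred on genes of its expression bin. For a list median the yardstick was the median implied standard error of its single genes, which is too wide to show that a median was stable. Centred on expression bins, the median of Slc7a11's relatives and Slc3a1 went from 0.35 to 0.01. That of selenoprotein genes went from 0.15 to -0.01 and that of ferroptosis genes from -0.07 to 0.06. Of the 63 called genes of the 11 lists, 4 called lower turned positive when centred in that way: Txn1 (0.08), Txn2 (0.03), Idh1 (0.05) and Taldo1 (0.08). The merged values leave the spread between samples unknown.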
